A study of Homo sapiens with 12 samples.

Results

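The insulin-like growth factor (IGF) binding proteins and the receptors of the IGF and insulin system were followed in A549 cells, which derive from a human lung adenocarcinoma, after depletion of either of 2 subunits of the SIN3-HDAC corepressor. The 10 genes were IGFBP1 to IGFBP7, the IGF1 receptor gene IGF1R, the IGF2 receptor gene IGF2R and the insulin receptor gene INSR. All probe sets annotated to these genes alone were taken, which gave 29 of the 54675 probe sets on the array, and the 10 genes stand among 19775 genes with a probe set of their own. The genes were chosen by their measured values: IGFBP1 was selected because it went opposite ways in the 2 knockdowns, and the other 9 came with it as its family. IGFBP1 is therefore described without a test.

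IGF binding proteins are secreted proteins that hold IGF1 and IGF2 and so set how much ligand reaches IGF1R, a receptor tyrosine kinase that signals through insulin receptor substrates to PI3K and AKT. IGF2R, also known as the cation-independent mannose 6-phosphate receptor, clears IGF2 and sorts lysosomal enzymes, and IGFBP7 is a relative that binds IGFs weakly. IGFBP1 is best known from liver and decidua, where insulin represses it through AKT and the FOXO transcription factors. FAM60A, now named SINHCAF, and SDS3, now named SUDS3, are both subunits of SIN3-HDAC complexes, which remove acetyl groups from histones.

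The study had 4 groups of 3 arrays. They were A549 cells given FAM60A siRNA, A549 cells given non-targeting siRNA as the control of that experiment, A549 cells given SDS3 siRNA, and A549 cells given non-targeting siRNA as the control of the SDS3 experiment. Every group, controls included, was transfected with 50 nM siRNA and lysed 3 days later. The labels name 1 siRNA for FAM60A and none by catalogue name for SDS3, so each knockdown is known here from 1 set of arrays, and the triplicates are wells of 1 cell line rather than stated separate cultures. The p-values therefore rest on the spread of these triplicates alone, and that spread may be technical.

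SINHCAF, the FAM60A siRNA target, was at 9.36, 9.12 and 9.43 (log2 signal) in FAM60A knockdown cells, against 11.99, 11.97 and 12.01 in their controls, which left 15.5% of the control signal. SUDS3, the SDS3 siRNA target, was at 8.48, 8.32 and 8.62 in SDS3 knockdown cells, against 10.11, 10.02 and 10.03 in their controls, or 33.4% of the control signal. In limma's test SUDS3 gave 0.04 (log2, adjusted p 0.743) after FAM60A knockdown, and SINHCAF rose by 0.35 (adjusted p 0.00596) after SDS3 knockdown on its brightest probe set. Median array signal was 186 to 193 in the FAM60A experiment and 96.8 to 98.3 in the SDS3 experiment, so levels are compared only within an experiment. The 7 A549-type markers were KRT8, KRT18, KRT19, CDH1 and the enzyme genes AKR1B10, ALDH3A1 and ALDH1A1. They had mean log2 signals of 10.31 to 15.05 in the FAM60A experiment and 7.83 to 14.82 in the SDS3 experiment. The 8 measured markers of blood, endothelium, muscle and liver were at 4.91 to 8.59 and 4.12 to 7.51 in those experiments, where the median probe set was at 7.56 and 6.61. The mean over the 7 A549-type markers was 12.31 to 12.38 in SDS3 knockdown arrays, against 12.87 to 12.97 in their controls, and 6 of the 7 fell in limma's test. It was 13.29 to 13.36 in FAM60A knockdown arrays, against 13.31 to 13.38 in theirs. KRT8, KRT18, KRT19 and CDH1 were all among the 6 that fell. The enzyme genes ALDH3A1, AKR1B10 and ALDH1A1 gave -1.058, -0.544 and 0.063 after SDS3 knockdown, so the fall in the mean over the 7 markers is not one of epithelial genes alone. The mean over the markers of other cell types was 6.48 to 6.56 in SDS3 knockdown arrays against 6.41 to 6.48 in controls, and 7.31 to 7.42 in FAM60A knockdown arrays against 7.44 to 7.48 in controls. The 12 probe sets for Bacillus control transcripts were also 0.32 (log2) brighter in SDS3 knockdown arrays than in their controls, and 0.09 brighter in FAM60A knockdown arrays than in theirs. Their means were 9.93, 9.99 and 10 in SDS3 knockdown arrays, against 9.56, 9.88 and 9.52 in controls. In FAM60A knockdown arrays they were 11.01, 11.35 and 11.25, against 11.05, 11.13 and 11.17, with overlap. These offsets thus rest on 3 arrays per group that differ among themselves. Scaling to the control transcripts moved the median change of all probe sets from 0.0081 to -0.31 in the SDS3 comparison and from -0.02 to -0.11 in the FAM60A comparison, and the part of this in the results was not tested. In RNA from whole wells, fewer cells of a kind and less RNA per cell cannot be told apart.

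The upstream sequences of 3 binding protein genes are shown because these genes gave 3 different results, described further on: IGFBP3 was higher after both knockdowns, IGFBP4 was higher after FAM60A knockdown, and IGFBP6 was lower after SDS3 knockdown. Each run is the 250 bases before the annotated start in RefSeq (GRCh38.p14), 5′ to 3′ on the gene's strand. The windows are chr7:45921273-45921522 on the minus strand for IGFBP3, chr17:40443200-40443449 on the plus strand for IGFBP4 and chr12:53097417-53097666 on the plus strand for IGFBP6. Capitals mark a GC box (GGGCGG or its reverse complement CCGCCC, the core bound by SP1-family factors) or the TATA element TATAAA.
IGFBP3: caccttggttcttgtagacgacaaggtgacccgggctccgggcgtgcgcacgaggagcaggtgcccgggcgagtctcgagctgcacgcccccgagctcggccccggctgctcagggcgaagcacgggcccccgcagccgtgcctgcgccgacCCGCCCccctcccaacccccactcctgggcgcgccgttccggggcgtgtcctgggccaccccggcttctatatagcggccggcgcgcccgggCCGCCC
IGFBP4: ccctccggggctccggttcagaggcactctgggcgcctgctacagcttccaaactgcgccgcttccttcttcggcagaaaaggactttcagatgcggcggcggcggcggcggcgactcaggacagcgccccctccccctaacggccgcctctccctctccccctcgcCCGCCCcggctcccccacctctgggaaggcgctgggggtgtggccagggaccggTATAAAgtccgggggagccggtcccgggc
IGFBP6: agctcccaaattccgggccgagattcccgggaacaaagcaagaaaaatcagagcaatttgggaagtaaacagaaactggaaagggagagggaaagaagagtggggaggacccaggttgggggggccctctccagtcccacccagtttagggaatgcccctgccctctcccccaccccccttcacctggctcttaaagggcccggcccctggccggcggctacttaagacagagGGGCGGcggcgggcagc
The IGFBP3 window held 2 GC boxes and was 76% G or C. The IGFBP4 window held 1 GC box and 1 TATA element and was 71.6% G or C, and the IGFBP6 window held 1 GC box and was 61.2% G or C. Sequences were found for 8 of the 10 genes, with 10 annotated starts, and IGFBP1 and IGFBP7 were not matched. A GC box was found on either strand in 8 of the 10 windows, all but that of IGFBP5 and 1 of the 3 of IGFBP2, against 42.6% of all 35116 windows of this length. The 10 windows were 56.4% to 81.2% G or C, against a median of 58% over all windows. The part of this content in the GC box count was not tested. The E-box CACGTG was found in 1 of the 10 windows, that of IGF2R (6.34% of all windows), and TATAAA on either strand in 1, that of IGFBP4 (10.7% of all windows). These are matches of letters and say nothing of a factor's binding.

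IGFBP1, which was chosen for its opposite changes, had the widest difference between the 2 knockdowns among the 10 genes. Its brighter probe set was at 9.56, 9.36 and 9.31 (log2 signal) in FAM60A knockdown cells, against 8.02, 8.01 and 8.17 in their controls. In SDS3 knockdown cells it was at 7.75, 7.44 and 7.91, against 8.54, 8.57 and 8.68 in theirs. All 3 FAM60A knockdown arrays thus lay above their controls and all 3 SDS3 knockdown arrays below theirs, with no overlap in either experiment. The change was 1.34 ± 0.0803 (log2, SE) after FAM60A knockdown, which is 2.54-fold higher, and -0.90 ± 0.113 after SDS3 knockdown, which is 1.87-fold lower. The SDS3 response minus the FAM60A response was -2.24 ± 0.147, the fourth most negative of 18621 genes. This rank is on the values by which the gene was chosen, so it is a description only. The dimmer IGFBP1 probe set was below the filter on low signal and was not tested. It was at 4.73, 4.52 and 4.50 in FAM60A knockdown cells against 4.56, 4.66 and 4.65 in controls, and at 3.63, 3.73 and 3.74 in SDS3 knockdown cells against 3.85, 3.86 and 3.74 in controls. The dimmer probe set's groups overlapped or touched in both experiments, so the contrast in IGFBP1 rests on 1 probe set.

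**Figure D1:**
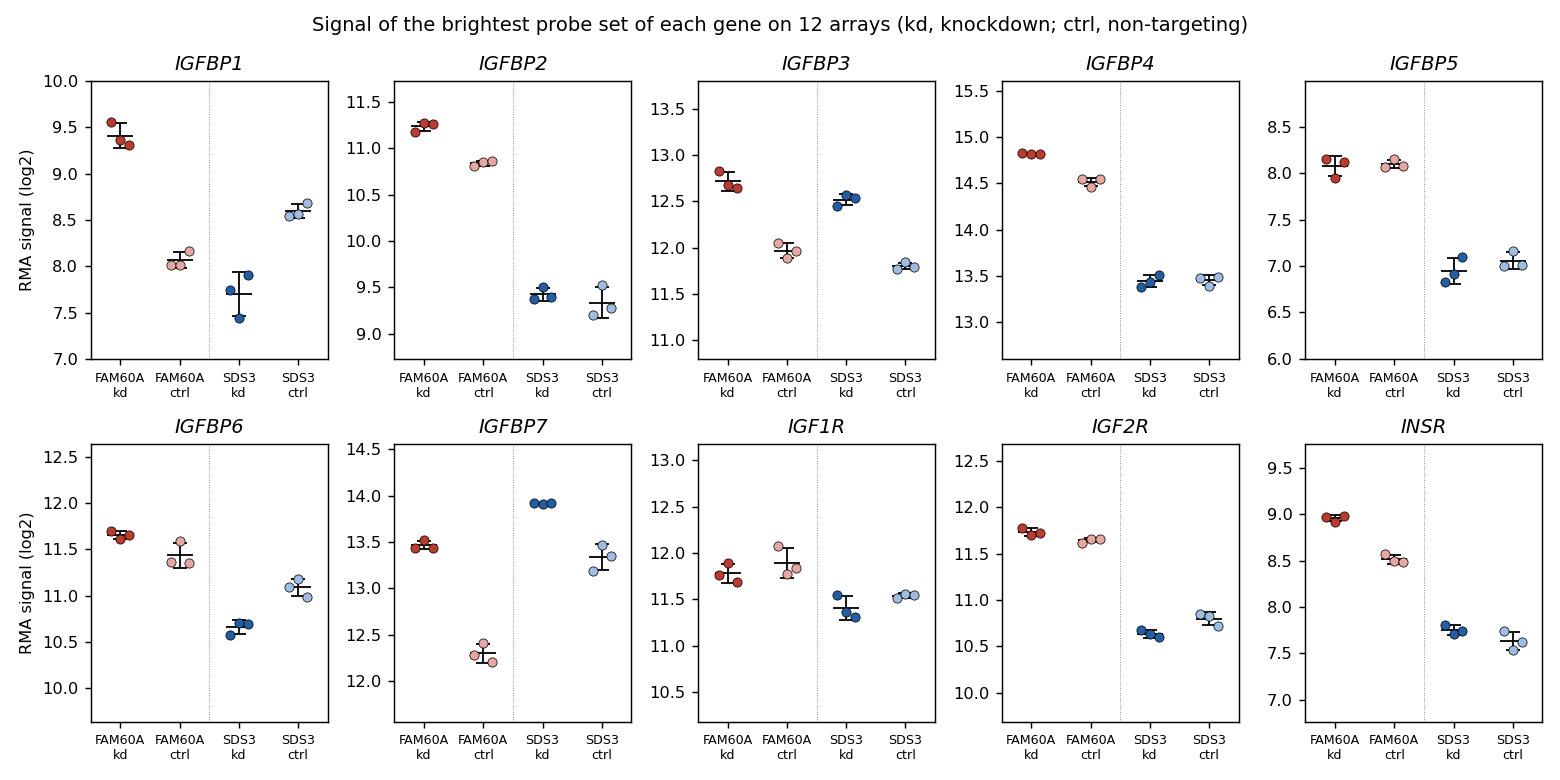
Log2 signal of the brightest probe set of each of the 10 genes on every array, with knockdown left of control within each experiment, dots for arrays and bars for mean ± SD (n = 3), each panel spanning the same log2 range. IGFBP1 lay above its controls after FAM60A knockdown and below them after SDS3 knockdown, and IGFBP3 and IGFBP7 lay above their controls in both experiments.

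Of the other 9 genes, taking the brightest probe set of each, 5 rose and 0 fell after FAM60A knockdown in limma's test at an adjusted p under 0.05, where 17.4% of all tested genes were called higher and 15.2% lower. After SDS3 knockdown 2 rose and 1 fell, where 13.4% of all tested genes were called higher and 16.6% lower. The difference between the responses was called for 0 genes in the higher direction and for 5 in the lower, against 7.87% and 13.5% of all tested genes. The groups did not overlap for 7 of the 9 genes in the FAM60A experiment (48.1% of all genes) and for 4 in the SDS3 experiment (47.6%). The median change of the 9 genes was 0.30 after FAM60A knockdown and -0.02 after SDS3 knockdown, against -0.023 and 0.0064 over all tested genes. Over the 26 tested probe sets of these 9 genes, 10 were called after FAM60A knockdown (26.9% of all probe sets), 9 after SDS3 knockdown (24.2%) and 8 for the difference (16.9%). Nothing about the family is read from these counts, since these comparisons were used to choose it.

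IGFBP3, the main carrier of IGFs in serum, rose after both knockdowns. Its brighter probe set was at 12.83, 12.67 and 12.64 in FAM60A knockdown cells, against 12.05, 11.89 and 11.96 in controls, and at 12.45, 12.57 and 12.53 in SDS3 knockdown cells, against 11.77, 11.84 and 11.79 in controls. Every knockdown array lay above every control of its experiment. The changes were 0.75 ± 0.0735 (log2, SE, 1.68-fold, adjusted p 5.16e-05 in limma) after FAM60A knockdown and 0.72 ± 0.0594 (1.64-fold, adjusted p 6.78e-05) after SDS3 knockdown. The difference between the responses was -0.03 (95% interval -0.24 to 0.17, adjusted p 0.859). The second probe set gave 0.79 and 0.74 and was called in both experiments.

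IGFBP7, which binds IGFs weakly and is found in extracellular matrix, rose after both knockdowns. It was at 13.44, 13.52 and 13.44 in FAM60A knockdown cells, against 12.28, 12.41 and 12.21 in controls, and at 13.92, 13.91 and 13.92 in SDS3 knockdown cells, against 13.19, 13.47 and 13.35 in controls. The groups were apart in both experiments. The change was 1.16 ± 0.0677 (log2, SE, 2.24-fold, adjusted p 2.2e-06 in limma) after FAM60A knockdown and 0.58 ± 0.0756 (1.5-fold, adjusted p 0.000704) after SDS3 knockdown. With scaling to the control transcripts the SDS3 change was 0.261 (adjusted p 0.119) and no longer passed. Its brightest probe set also gave a difference between the responses of -0.58 ± 0.103 (adjusted p 0.00145), but the other 2 IGFBP7 probe sets gave 0.06 (adjusted p 0.846) and 0.19 (adjusted p 0.51), so a smaller rise after SDS3 knockdown was seen in 1 of 3 probe sets.

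IGFBP6, a binding protein that prefers IGF2, fell after SDS3 knockdown. It was at 10.58, 10.71 and 10.70 in SDS3 knockdown cells, against 11.10, 11.18 and 10.99 in controls, with no overlap, a change of -0.42 ± 0.0706 (log2, SE, 1.34-fold lower, adjusted p 0.0028 in limma). In FAM60A knockdown cells it was at 11.70, 11.61 and 11.66, against 11.37, 11.59 and 11.35 in controls. Those groups also did not overlap, but the change of 0.22 ± 0.0751 missed the threshold (adjusted p 0.0572). Without the second FAM60A control array, which lay closest to the knockdown arrays, it was 0.295 (adjusted p 0.00956). It was not called in 5 of 6 fits that each left out 1 array, with changes down to 0.176 and adjusted p of up to 0.18. The rise passed in 7 of 12 other settings of filter, probe set choice, scaling and fit (adjusted p 0.0177 to 0.0425). The FAM60A value of IGFBP6 is thus at the threshold, and in those settings the gene was called in opposite directions in the 2 experiments. With scaling to the control transcripts the FAM60A change of IGFBP6 was 0.13 (adjusted p 0.62) and did not pass. The SDS3 response minus the FAM60A response was -0.64 ± 0.105 (adjusted p 0.000897). IGFBP6 has 1 probe set, so no second reading was at hand.

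IGFBP2 and IGFBP4, both soluble IGF carriers, rose after FAM60A knockdown. IGFBP2 was at 11.18, 11.27 and 11.26 in FAM60A knockdown cells, against 10.81, 10.85 and 10.86 in controls, a change of 0.40 ± 0.0586 (1.32-fold, adjusted p 0.000634 in limma). IGFBP4 was at 14.83, 14.82 and 14.81, against 14.54, 14.46 and 14.54 in controls, a change of 0.30 ± 0.057 (1.23-fold, adjusted p 0.00281). Neither overlapped with its controls. In SDS3 knockdown cells IGFBP2 was at 9.37, 9.5 and 9.40, against 9.20, 9.52 and 9.28, and IGFBP4 at 13.38, 13.43 and 13.51, against 13.48, 13.39 and 13.49, and both overlapped with their controls. The difference between the responses passed for IGFBP4 (-0.32, 95% interval -0.49 to -0.15, adjusted p 0.0134) and missed the threshold for IGFBP2 (-0.31, adjusted p 0.0607). The IGFBP2 difference passed in 5 of 11 other settings (adjusted p 0.0237 to 0.0498), so it too is at the threshold. It was not called in 11 of 12 fits that each left out 1 array, with adjusted p of up to 0.129. With scaling to the control transcripts the FAM60A changes of IGFBP2 (0.313, adjusted p 0.16) and IGFBP4 (0.216, adjusted p 0.388) no longer passed, nor did the IGFBP4 difference (-0.555, adjusted p 0.0645), while IGFBP4 was called lower after SDS3 knockdown (-0.338, adjusted p 0.0489).

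IGFBP5, which is bound to matrix and bone, had 5 tested probe sets and none was called in either experiment. Its brightest was at 8.15, 7.95 and 8.12 in FAM60A knockdown cells, against 8.07, 8.15 and 8.08 in controls, and at 6.83, 6.91 and 7.10 in SDS3 knockdown cells, against 7.0, 7.16 and 7.01 in controls. The groups overlapped in both experiments. The 5 probe sets ranged from -0.20 to 0.24 after FAM60A knockdown and from -0.15 to 0.04 after SDS3 knockdown, and a sixth was below the filter. With scaling to the control transcripts the brightest probe set of IGFBP5 was called lower after SDS3 knockdown (-0.433, adjusted p 0.013 in limma).

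**Figure D2:**
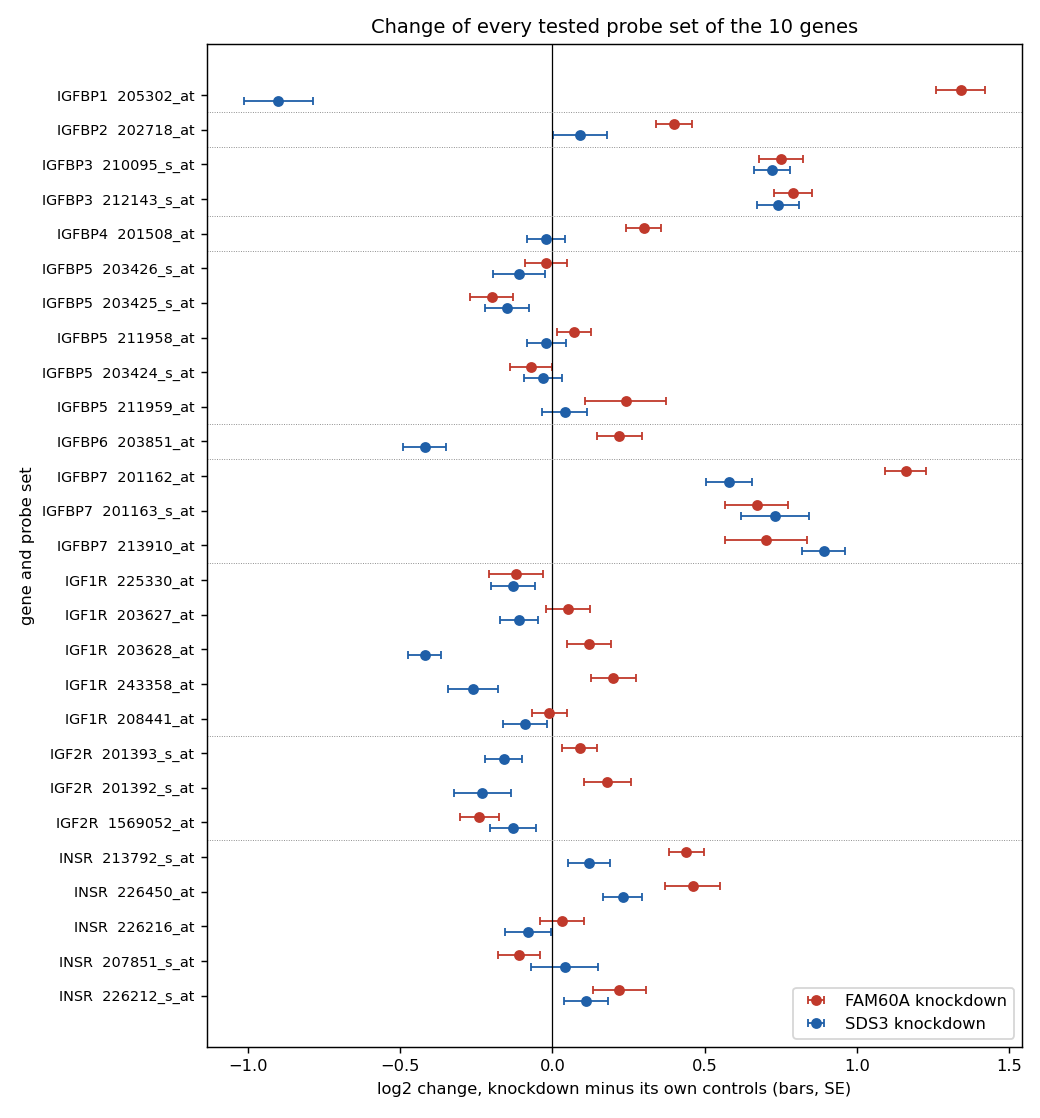
Change in log2 signal (knockdown minus control, ± SE) of each tested probe set of the 10 genes, in the FAM60A and SDS3 experiments. Probe sets of IGFBP3 and IGFBP7 lay to the right of 0 in both experiments, and those of IGFBP5 lay around 0.

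Among the receptors, INSR rose after FAM60A knockdown. Its brightest probe set was at 8.97, 8.92 and 8.98, against 8.57, 8.49 and 8.48 in controls, without overlap, a change of 0.44 ± 0.0587 (log2, SE, 1.36-fold, adjusted p 0.000359 in limma). In SDS3 knockdown cells it was at 7.81, 7.71 and 7.74, against 7.74, 7.54 and 7.62, with a change of 0.12 (adjusted p 0.272) and overlapping groups. The difference of -0.32 (95% interval -0.51 to -0.13, adjusted p 0.0223) was lost in 3 of 12 fits that each left out 1 array, and with the mean of the probe sets (-0.127, adjusted p 0.174). A second probe set also rose after FAM60A knockdown (0.46, adjusted p 0.00387) and rose after SDS3 knockdown (0.23, adjusted p 0.0326), without a called difference (adjusted p 0.204), and the other 3 probe sets were not called. With scaling to the control transcripts the FAM60A change of INSR was 0.352 (adjusted p 0.095).

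IGF1R, the main IGF1 receptor, was not called on its brightest probe set. It was at 11.76, 11.89 and 11.69 in FAM60A knockdown cells, against 12.08, 11.77 and 11.84, and at 11.55, 11.36 and 11.31 in SDS3 knockdown cells, against 11.51, 11.56 and 11.55. The changes were -0.12 (adjusted p 0.375 in limma) and -0.13 (adjusted p 0.237), and the groups overlapped in both experiments. The 5 IGF1R probe sets did not give 1 answer after SDS3 knockdown: a dimmer one was at 6.93, 6.93 and 6.91, against 7.37, 7.37 and 7.29 in controls, a change of -0.42 ± 0.0553 (adjusted p 0.000772), and another gave -0.26 (adjusted p 0.0497). The other 2 gave -0.11 and -0.09 and were not called. None of the 5 was called after FAM60A knockdown (-0.12 to 0.20). The SDS3 response minus the FAM60A response was -0.01 (adjusted p 0.954) on the brightest probe set and was called lower on 2 of the 5, at -0.53 (adjusted p 0.000966) and -0.46 (adjusted p 0.0118). With the mean of the probe sets, IGF1R fell by 0.203 after SDS3 knockdown (adjusted p 0.0142) and the difference was -0.252 (adjusted p 0.0115). With scaling to the control transcripts the brightest probe set was also called lower after SDS3 knockdown (-0.455, adjusted p 0.00903).

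IGF2R, which clears IGF2, was not called on its brightest probe set in either experiment. Its brightest probe set was at 11.78, 11.70 and 11.73 in FAM60A knockdown cells, against 11.62, 11.66 and 11.66, and at 10.68, 10.63 and 10.60 in SDS3 knockdown cells, against 10.85, 10.83 and 10.72. The groups did not overlap in either experiment, but the changes of 0.09 (adjusted p 0.307 in limma) and -0.16 (adjusted p 0.0889) were not called. The difference of -0.25 (95% interval -0.42 to -0.08, adjusted p 0.0413) was lost in 11 of 12 fits that each left out 1 array, and its sign turned without probe sets of shared sequence (0.12, adjusted p 0.491). The SDS3 change was called lower in 4 other settings, among them the mean of the probe sets (-0.172, adjusted p 0.0207) and scaling to the control transcripts (-0.486, adjusted p 0.00521). The second brightest IGF2R probe set gave 0.18 (adjusted p 0.121) and -0.23 (adjusted p 0.121). Its difference was also called lower (-0.40, 95% interval -0.68 to -0.13, adjusted p 0.0419). The dimmest IGF2R probe set, the only one without shared sequence, gave the difference of 0.12 and fell after FAM60A knockdown (-0.24, adjusted p 0.0171).

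**Figure D3:**
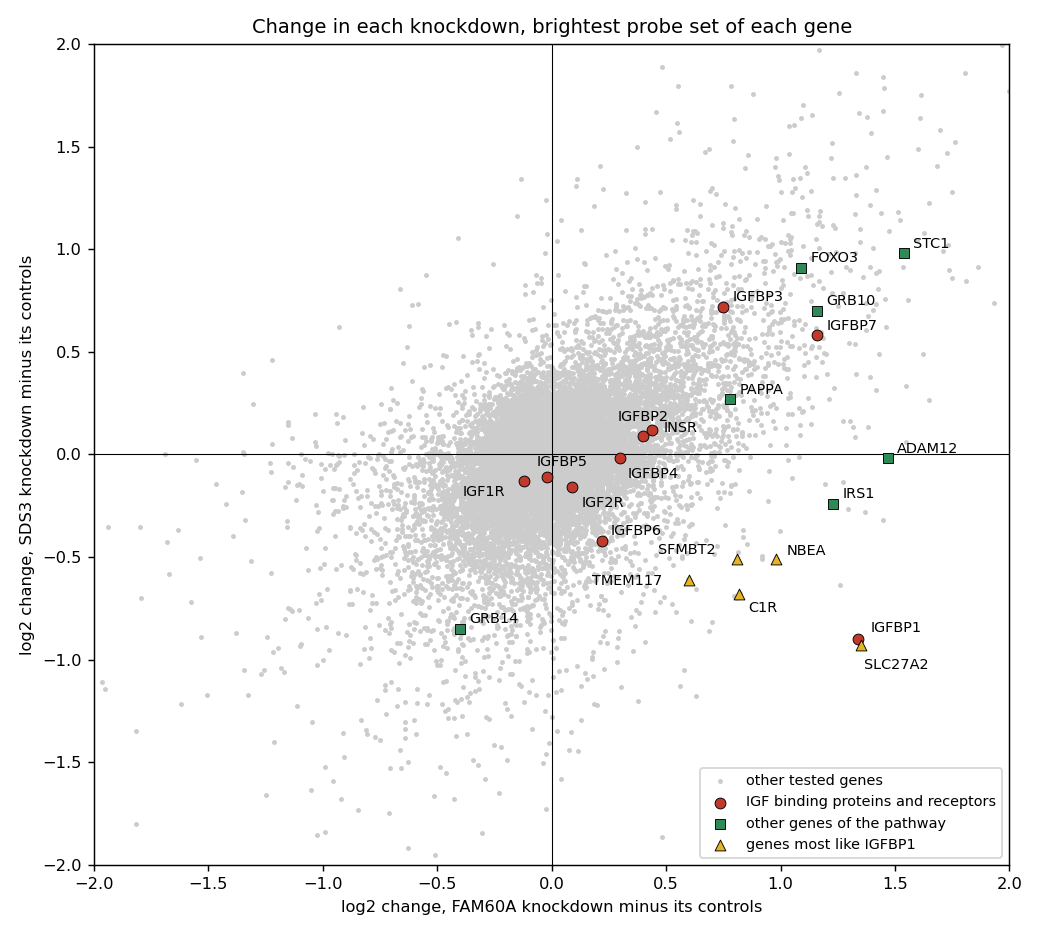
Change after SDS3 knockdown (vertical, log2) against change after FAM60A knockdown (horizontal, log2) for the brightest probe set of each gene, with circles for the 10 genes, squares for other genes of the pathway, triangles for the genes most like IGFBP1 and grey points for all other tested genes. IGFBP1 sat at 1.34 and -0.90, apart from the other 9 genes, and 44 genes lay outside the plotted range.

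The ligands were not called. IGF1 gave -0.12 (adjusted p 0.214 in limma) after FAM60A knockdown and 0.03 (adjusted p 0.798) after SDS3 knockdown on its brightest probe set, and INS gave -0.13 (adjusted p 0.14) and 0.00 (adjusted p 0.987). The 3 probe sets for IGF2 are annotated to IGF2 and INS-IGF2 together, so no value is given for IGF2.

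Proteins that free or hold IGFs outside the cell were a list of 14 genes, with 13 tested, of which 5 rose and 0 fell after FAM60A knockdown and 5 rose and 2 fell after SDS3 knockdown, with a median change of 0.13 in both. For this list and those that follow, 17.4% of all tested genes were called higher and 15.2% lower after FAM60A knockdown, and 13.4% higher and 16.6% lower after SDS3 knockdown. STC1, a stanniocalcin that inhibits the PAPPA protease, rose after both, by 1.54 (2.91-fold, adjusted p 3.42e-07 in limma) after FAM60A knockdown and 0.98 (adjusted p 2.56e-05) after SDS3 knockdown. PAPPA, a protease that cleaves IGFBP4, rose by 0.78 (adjusted p 0.000163) and 0.27 (adjusted p 0.0114), and HTRA1, a secreted serine protease, by 0.91 (adjusted p 7.89e-06) and 0.30 (adjusted p 0.0242). The rises after SDS3 knockdown turned to -0.053 for PAPPA and -0.026 for HTRA1 with scaling to the control transcripts, and HTRA1 lost its SDS3 call in 4 of 6 fits that each left out 1 array. Dimmer PAPPA probe sets gave 0.36 (adjusted p 0.0123) and 0.27 (adjusted p 0.0139) after SDS3 knockdown. Others, among them 0.25 (adjusted p 0.0577), 0.17 (adjusted p 0.185) and -0.03 (adjusted p 0.753), were not called. The dimmer STC1 probe sets gave 0.92 (adjusted p 0.000285) and 0.32 (adjusted p 0.108) after SDS3 knockdown. ADAM12, a metalloprotease that can cleave IGFBP3, was at 9.05, 9.04 and 9.03 in FAM60A knockdown cells, against 7.48, 7.59 and 7.66, and at 8.03, 7.82 and 8.10 in SDS3 knockdown cells, against 7.89, 8.02 and 8.09. Its FAM60A groups did not overlap and its SDS3 groups did, and the difference between the responses was -1.48 ± 0.111 (adjusted p 1.43e-06).

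Of 16 tested receptor adaptors and feedback regulators, 7 rose and 2 fell after FAM60A knockdown and 5 rose and 2 fell after SDS3 knockdown, with medians of 0.13 and 0.05. IRS1, the substrate that couples IGF1R and INSR to PI3K, went opposite ways like IGFBP1. It was at 11.04, 11.04 and 10.95 in FAM60A knockdown cells, against 9.78, 9.74 and 9.83, and at 10.10, 10.08 and 10.18 in SDS3 knockdown cells, against 10.44, 10.29 and 10.36. There was no overlap in either experiment. IRS1 rose by 1.23 ± 0.0594 (2.34-fold, adjusted p 8.61e-07 in limma) after FAM60A knockdown and fell by 0.24 (adjusted p 0.0233) after SDS3 knockdown, a difference of -1.47 ± 0.0833 (adjusted p 1.67e-07). The SDS3 call was lost in 4 of 6 fits that each left out 1 array, with adjusted p of up to 0.078, and a dimmer IRS1 probe set gave 0.15 (adjusted p 0.337) after SDS3 knockdown. Another dimmer IRS1 probe set rose by 1.11 (adjusted p 4.48e-06) after FAM60A knockdown and fell by 0.41 (adjusted p 0.0149) after SDS3 knockdown. With scaling to the control transcripts the SDS3 change of IRS1 was -0.566 (adjusted p 0.000988). IRS2, its relative, rose by 0.25 (adjusted p 0.0221) after FAM60A knockdown and gave -0.12 (adjusted p 0.38) after SDS3 knockdown. The IRS2 rise was lost in 4 of 6 fits that each left out 1 array and with scaling to the control transcripts (0.166, adjusted p 0.524).

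Of the other adaptors, GRB10, which restrains insulin and IGF receptors, rose after both knockdowns, by 1.16 (adjusted p 1.86e-06 in limma) after FAM60A knockdown and 0.70 (adjusted p 0.000156) after SDS3 knockdown. SHC1, an adaptor to the RAS pathway, also rose after both, by 0.49 and 0.71 (adjusted p 0.000268 and 6.68e-05). GRB14, a relative of GRB10 that inhibits the insulin receptor, fell after both, with changes of -0.40 and -0.85 (adjusted p 0.00152 and 5.34e-05).

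Of 16 tested genes of the PI3K-AKT-FOXO arm, 5 rose and 2 fell after FAM60A knockdown and 5 rose and 4 fell after SDS3 knockdown. FOXO3, a transcription factor held out of the nucleus by AKT, rose after both, by 1.09 (adjusted p 1.65e-06 in limma) and 0.91 (adjusted p 1.94e-05). RPTOR, a subunit of mTORC1, rose by 0.61 (adjusted p 3.65e-05) and 0.30 (adjusted p 0.0238), and PDPK1, the kinase that activates AKT, by 0.22 (adjusted p 0.0359) and 0.61 (adjusted p 0.000111). The SDS3 change of RPTOR turned to -0.027 with scaling to the control transcripts, and was lost in 4 of 6 fits that each left out 1 array. The PDPK1 rise after FAM60A knockdown was lost with that scaling (0.133, adjusted p 0.613) and in 5 of 6 such fits, and its SDS3 rise with that scaling (0.288, adjusted p 0.0881). The regulatory subunit gene PIK3R1 gave -0.04 (adjusted p 0.699) after FAM60A knockdown and fell by 0.83 (adjusted p 4.66e-05) after SDS3 knockdown on its brightest probe set, while its other 2 probe sets gave -0.11 and -0.13 and were not called.

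Of 14 tested genes that FOXO factors induce and insulin represses, 5 rose and 2 fell after FAM60A knockdown and 3 rose and 4 fell after SDS3 knockdown, with medians of 0.09 and 0.11. FBXO32, a muscle ubiquitin ligase, rose after both, by 1.34 (adjusted p 3.05e-06 in limma) and 1.66 (adjusted p 7.23e-06). PDK4, a kinase that turns off pyruvate dehydrogenase, fell after both, with changes of -1.05 (adjusted p 4.49e-06) and -1.63 (adjusted p 9.49e-06), and SESN3, a stress-induced regulator of mTORC1, fell with -0.60 and -0.42 (adjusted p 0.000301 and 0.00725). CITED2, a transcriptional coregulator, rose by 0.59 (adjusted p 0.000461) and 0.29 (adjusted p 0.0195), and its SDS3 change turned to -0.032 with scaling to the control transcripts and was lost in 4 of 6 fits that each left out 1 array.

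**Figure D4:**
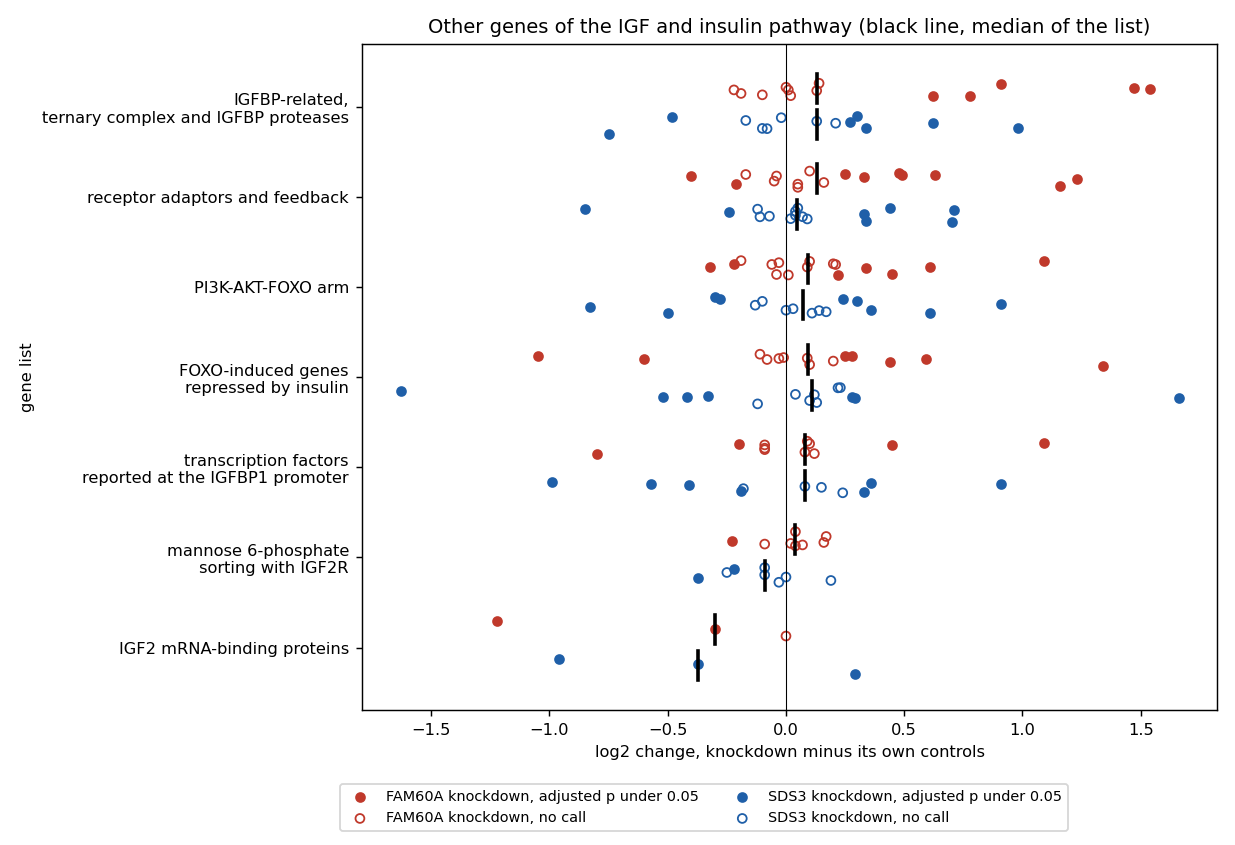
Change in log2 signal (knockdown minus control) of the brightest probe set of every tested gene in each list, for both experiments, with filled points for an adjusted p under 0.05, open points for no call and a black line at the list median. Points lay on both sides of 0 in the adaptor, PI3K-AKT-FOXO and FOXO-induced lists, with medians of 0.05 to 0.13.

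Of 11 tested transcription factors reported at the IGFBP1 promoter, FOXO3 being counted here too, 2 rose and 2 fell after FAM60A knockdown and 3 rose and 4 fell after SDS3 knockdown, with a median of 0.08 in both. AHR, the aryl hydrocarbon receptor, fell after both, with -0.80 (adjusted p 0.000164 in limma) and -0.99 (adjusted p 3.61e-05). HIF1A, the hypoxia factor, rose by 0.45 (adjusted p 0.013) and 0.33 (adjusted p 0.00588), and with scaling to the control transcripts it gave 0.363 (adjusted p 0.0819) and 0.008 (adjusted p 0.962). The pioneer factor FOXA1 gave -0.09 (adjusted p 0.38) after FAM60A knockdown and fell by 0.57 (adjusted p 0.00121) after SDS3 knockdown, a difference of -0.49 (adjusted p 0.00578). Of 8 tested genes of mannose 6-phosphate sorting, 0 rose and 1 fell after FAM60A knockdown and 0 rose and 2 fell after SDS3 knockdown. They were M6PR, the smaller sorting receptor (-0.23 and -0.37, adjusted p 0.0171 and 0.0101), and CTSD, the lysosomal protease cathepsin D (0.02, adjusted p 0.848, and -0.22, adjusted p 0.0249). The CTSD call was lost in 4 of 6 fits that each left out 1 array, and the FAM60A call of M6PR with scaling to the control transcripts (-0.314, adjusted p 0.157). The 3 IGF2 mRNA-binding protein genes gave 0 higher and 2 lower calls after FAM60A knockdown, and 1 higher and 2 lower after SDS3 knockdown. IGF2BP1 fell after both (-1.22, adjusted p 9.83e-07, and -0.96, adjusted p 1.19e-05), as did IGF2BP3 (-0.30, adjusted p 0.0219, and -0.37, adjusted p 0.00422), whose FAM60A call was lost in 3 of 6 fits that each left out 1 array. IGF2BP2 gave 0.00 (adjusted p 0.975) after FAM60A knockdown and rose by 0.29 (adjusted p 0.0131) after SDS3 knockdown, a rise that scaling to the control transcripts turned to -0.037.

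Other genes also went opposite ways in the 2 knockdowns. In all, 251 of 18621 tested genes were called higher after FAM60A and lower after SDS3 knockdown, and 101 the other way. Of the 251, only 22 moved by at least 0.5 (log2) each way. Calls in 1 direction were more common, with 1530 genes higher and 1385 lower after both. The 5 genes whose profile was most like that of IGFBP1 were ranked by Pearson's r over the 12 arrays, centred on the controls of each experiment, among 783 genes that moved by at least 0.5 (log2) in both experiments. SFMBT2, a Polycomb-group protein, had r = 0.994 with changes of 0.81 and -0.51. SLC27A2, a fatty acid transporter and acyl-CoA synthetase, had r = 0.991 with 1.35 and -0.93. NBEA, the scaffold protein neurobeachin, had r = 0.988 with 0.98 and -0.51, C1R, a complement protease, had r = 0.988 with 0.82 and -0.68, and TMEM117 had r = 0.986 with 0.60 and -0.61. These correlations are a description over 12 arrays in 4 groups, largely set by the group means, and carry no test.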

How the data were processed

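Total RNA of A549 cells, 12 arrays in 4 groups of 3, was measured on a 3' expression array of 54675 probe sets. The deposited values are linear signal intensity per probe set made by the authors with RMA, per the submitters' processing notes. Whether 1 run of RMA covered all 12 arrays is not stated in the labels. The plan had assumed log2 values, so log2 was taken here. The 62 control probe sets were left out, and probe sets at or above log2 5 on at least 3 arrays were tested (48286). limma 3.58.1 in R 4.3.3 was fitted to all of them, by experiment for each knockdown and to all 12 arrays for the difference, with Benjamini-Hochberg adjustment and a threshold of 0.05, after a test on simulated data.

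Symbols came from GEO's platform annotation: 41097 probe sets had 1 symbol, 1801 several and 11777 none, and 41043 were matched through Entrez identifiers to RefSeq (GRCh38.p14). The members, lists and tests were chosen with earlier results of these data known. A gene's value is its probe set with the highest mean. Named from each list were up to 4 genes with the largest called change in either knockdown, with IGF1, INS, IRS1 and IRS2 always. The number of arrays limits the precision. Alternatives were other filters, probe set choices, scalings and fits, a replicate block, and each array left out.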

Additional observations from a re-analysis of the deposited data

Results flagged for a closer look

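In 5 of the 9 tested genes the SDS3 response was lower than the FAM60A response in limma's test of the difference itself. Over all tested genes 13.5% were called lower and 7.87% higher for this difference, and nothing about the family is read from the count. The values (log2, SDS3 response minus FAM60A response) were -0.32 for IGFBP4, -0.64 for IGFBP6, -0.58 for IGFBP7, -0.25 for IGF2R and -0.32 for INSR. For IGFBP7 the difference was seen in 1 of 3 probe sets and was lost with the mean of the probe sets (-0.111, adjusted p 0.468). The INSR difference was lost with the mean (-0.127, adjusted p 0.174), without probe sets of shared sequence (-0.232, adjusted p 0.224) and with scaling to the control transcripts (adjusted p 0.0636). The IGF2R difference was lost with no filter (adjusted p 0.0518), the mean (0.0611), median centring (0.0505), that scaling (0.12) and the replicate block (0.0945), and turned to 0.12 without shared sequence. The second brightest IGF2R probe set was also called lower for the difference (-0.40, adjusted p 0.0419). The IGFBP4 difference was lost with that scaling (adjusted p 0.0645). The IGF1R difference, not called on its brightest probe set, was called lower on 2 of its 5 probe sets. IGFBP1 gave -2.24, with every FAM60A knockdown array above and every SDS3 knockdown array below its controls, and this difference was not tested because the gene was chosen for it.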

How the results depend on the processing

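The counts of called probe sets were 12979 (FAM60A), 11678 (SDS3) and 8145 (difference). They were 6855, 6439 and 4716 with 1 probe set per gene, 6546, 6080 and 4335 with the mean of a gene's probe sets, 7874, 7109 and 4872 without probe sets of shared sequence, and 8286, 7123 and 4287 at an adjusted p under 0.01. Scaling to the control transcripts gave 6032, 22349 and 4915; the share called higher was 43.1%, 4.33% and 5.62%, against 54.9%, 45.6% and 37.2% before. Leaving out 1 array gave 10248 to 11874, 8880 to 10784 and 6514 to 8469. Fewer features or a stricter threshold reduce the counts by construction; the cause of the shift with scaling was not tested.

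Replicate numbers did not pair the samples: the correlation of same-numbered deviations ran from -0.138 to 0.0185, and 0 of 6 were highest for their own number. With the replicate block 11060, 10284 and 6309 probe sets were called; the IGFBP2 difference passed (adjusted p 0.0498) and the IGF2R difference did not (adjusted p 0.0945).

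IGFBP1 kept its direction in all settings run, at 0.651 to 1.40 after FAM60A knockdown, -1.22 to -0.508 after SDS3 knockdown and -2.48 to -1.16 for the difference. Over the 10 genes, 507 of 587 alternative values were kept and 20 changed sign. Over the named pathway genes these were 1307 and 22 of 1463. A kept value had the same direction and call, or for IGFBP1, which has no call, the same direction and a shift below its replicate SD. By that rule 5 values of IGFBP1 moved further without a change of sign. After FAM60A knockdown the sign changed for IGF1R (0.049) and IGF2BP2 (-0.061) with the mean of probe sets, for IGFBP5 (0.072) and IGF2R (-0.245) without shared sequence, for IGF2BP2 with median centring (-0.005), quantile normalization (-0.013) and control-transcript scaling (-0.084), and for CTSD with that scaling (-0.066). After SDS3 knockdown that scaling gave -0.236 for IGFBP2, -0.204 for INSR, -0.026 for HTRA1, -0.053 for PAPPA, -0.027 for RPTOR, -0.032 for CITED2 and -0.037 for IGF2BP2. For the difference, IGFBP5 gave 0.004 with the mean, IGF2R 0.12, PIK3R1 0.068 and IGF2BP3 0.099 without shared sequence, IGF1R 0.016 with quantile normalization, and SHC1 -0.013 and SESN3 -0.051 with control-transcript scaling.

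Leaving out 1 array changed signs near 0. The FAM60A ranges were -0.063 to 0.037 for IGFBP5, -0.11 to 0.011 for PIK3R1, -0.03 to 0.074 for CTSD and -0.022 to 0.024 for IGF2BP2. The SDS3 ranges were -0.054 to 0.015 for IGFBP4 and -0.076 to 0.064 for ADAM12. The difference ranges were -0.076 to 0.027 for IGFBP3, -0.104 to 0.046 for IGF1R and -0.212 to 0.021 for HIF1A. The cause of these sign changes was not tested.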
